A study of Mus musculus with 8 samples.

Results

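Gene deserts are long stretches of a chromosome without a protein-coding gene. Here they were taken as the intervals of at least 500 kb between neighbouring RefSeq protein-coding genes on chromosomes 1 to 19 of the mm10 build, with chromosome 14 used only up to 42 Mb. There were 562 such intervals among 18024 intervals between neighbouring protein-coding genes. They added up to 648.7 Mb, which was 28.0% of the 2315 Mb between the first and the last gene of each chromosome. Peaks of 3 proteins were counted in them by the midpoint of each peak.

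The peaks came from ChIP-seq, an assay that reads the DNA pulled down with a crosslinked protein. The cells were primary neural progenitors of the hippocampus, taken from male mice of strain C57BL/6. Immunoprecipitation was against Mgea5, an enzyme that takes O-GlcNAc off other proteins, Panx2, a pannexin membrane channel protein, and Polr1c, a subunit that RNA polymerases I and III share. Each protein had 2 replicate libraries, and 2 input libraries without immunoprecipitation completed the 8 samples. The labels name no treatment or genotype, the age of the mice is not given in the sources used here, and nothing says that replicates were separate cultures, so the spread between replicates may be technical. The input libraries and the read depth were not analysed here, and peak lists carry no expression from which the cell type could be checked.

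Deserts are known to hold distant enhancers of developmental regulators in some cases and long stretches of late-replicating, AT-rich heterochromatin in others. Many deserts conserved among vertebrates flank genes of transcription factors or of neuronal adhesion proteins. They are not empty of genes, since long non-coding RNA (lncRNA) genes, microRNA genes and clusters of other small RNAs lie in them.

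The lists differed in kind before any comparison. Mgea5 and Panx2 were called as broad peaks and Polr1c as narrow peaks, and the lists held from 720 peaks (Polr1c replicate 1) to 526316 peaks (Mgea5 replicate 1) in the span studied. Peak names inside the lists share a prefix in Panx2 replicate 1 and Polr1c replicate 1, and the other 4 lists share a different prefix. These groups are called calling runs below, although the names do not show whether or how the calling differed. Panx2 replicate 1 stood apart from the other 3 broad lists in number, with 142781 peaks against 467456 in Panx2 replicate 2, and in several comparisons below. Whether it differs in quality or in labelling cannot be checked from peak lists, which bears on all comparisons between the Panx2 replicates, and each test over libraries is therefore given with and without it. Counts of peaks were read only within a list, because depth and calling thresholds are unknown.

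Of the microRNA genes listed for the brain, 10 of 40 lie in deserts, and the table of RefSeq sequences on GRCm38.p6, the assembly behind mm10, had a mature sequence for 9 of these 10. The guide strands are shown because these genes are the desert loci closest to the question of the study, which asked about binding at the miR-9 locus. Capitals mark the seed, bases 2 to 8, by which a microRNA pairs with its targets. The sequences group by seed into a miR-181 pair (ACAUUCA), a miR-99 and miR-100 pair (ACCCGUA) and single seeds for the others, and miR-125b is encoded in both the desert between Usp25 and Cxadr and the desert between Ubash3b and Gm40514.
mmu-miR-9-5p: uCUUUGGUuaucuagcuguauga
mmu-miR-137-3p: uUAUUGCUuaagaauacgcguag
mmu-miR-181a-5p: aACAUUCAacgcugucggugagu
mmu-miR-181b-5p: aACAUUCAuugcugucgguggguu
mmu-miR-99a-5p: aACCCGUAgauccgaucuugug
mmu-miR-100-5p: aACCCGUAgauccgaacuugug
mmu-miR-125b-5p: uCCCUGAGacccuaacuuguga
mmu-let-7c-5p: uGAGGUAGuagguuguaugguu

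The microRNA genes of deserts had a peak nearby less often than the microRNA genes elsewhere in the 6 lists, but a single cluster of 44 genes, in the imprinted desert between Rtl1 and Dio3, weighed heavily on these shares. Within 5 kb, 110 of the 126 microRNA genes in deserts (87.3%) had a peak in Mgea5 replicate 1, against 96.9% of 974 elsewhere. The shares were 69.0% against 93.0% in Mgea5 replicate 2, 30.2% against 39.2% in Panx2 replicate 1 and 81.7% against 96.9% in Panx2 replicate 2. In the Polr1c lists they were 0% against 1.13% in replicate 1 and 7.94% against 26.1% in replicate 2. Over the 82 desert genes outside that cluster, the shares were 92.7% and 87.8% in Mgea5, 43.9% and 85.4% in Panx2, and 0 and 9 of the 82 in Polr1c, so without it Panx2 replicate 1 was above its share elsewhere. Neighbouring microRNA genes share peaks, so these genes are not independent and the difference was not tested.

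Mir9-2, a gene of the neural microRNA miR-9, lies at chr13:83738814-83738885 in the 555.2 kb desert between Mef2c, a neuronal transcription factor gene, and Tmem161b. Folds near microRNA genes are the highest fold enrichment over background of any peak within 5 kb. For Mir9-2 this was 1.64 and 1.76 in Mgea5 replicates 1 and 2 and 1.55 in Panx2 replicate 2. No peak of Panx2 replicate 1 or of Polr1c came within 5 kb. Mir137, a regulator of neuronal maturation in the desert between Snx7 and Dpyd, had 1.98 and 1.89 in Mgea5 and 1.76 and 2.0 in Panx2. Mir124a-2, a gene of the neuron-enriched miR-124, had 1.69 in Mgea5 replicate 1, no peak in Mgea5 replicate 2, and 1.80 and 2.25 in Panx2. All 10 brain genes had a peak in Mgea5 replicate 1 and Panx2 replicate 2, and none had a Polr1c peak. Over the 82 desert microRNA genes outside the Rtl1 to Dio3 cluster, the shares in these broad lists were 92.7% and 85.4%. In Polr1c, 0 and 9 of the 82 had a peak, so these counts do not set the brain genes apart. Their highest folds per list lay between 1.55 and 2.25, and none of these reached a q of 0.01. The Rtl1 to Dio3 cluster on chromosome 12 had a peak near 34 and 15 of its 44 genes in Mgea5 and near 2 and 33 in Panx2.

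Deserts held fewer peaks per Mb than the rest of the gene span in 5 of the 6 lists. The density in deserts against the rest was 172.8 against 248.5 peaks per Mb in Mgea5 replicate 1 and 166.9 against 243.7 in Mgea5 replicate 2. Panx2 replicate 2 had 138.4 against 226.6, while Panx2 replicate 1 went the other way with 64.8 against 60.4. Polr1c replicate 1 had 0.191 against 0.358, from 124 desert peaks, and Polr1c replicate 2 had 7.65 against 18.1. The ratios of desert to rest were thus 0.695, 0.685, 1.07, 0.611, 0.535 and 0.423 in that order of lists. The mean log2 ratio was −0.64 ± 0.45 (SD, n = 6 libraries), with an exact two-sided sign-flip permutation p of 0.0625 and an adjusted p of 0.104 over the 5 tests made this way, so the difference did not pass the threshold of 0.05. The smallest p that 6 libraries allow is 0.03125. The 6 libraries are 2 replicates of each of 3 proteins, called as broad or narrow peaks, and may not be independent. The SD thus mixes the spread between proteins with that between replicates, and the p holds only if the libraries are independent. The same applies to the other tests over libraries. Without Panx2 replicate 1 all 5 remaining lists were lower in deserts, with a mean log2 ratio of −0.78, where 5 libraries allow no p below 0.0625.

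The part of the genome outside deserts mixes gene bodies with shorter intervals, so deserts were also set against the 17462 intervals under 500 kb. In Mgea5 the shorter intervals had 228.1 and 226.3 peaks per Mb and protein-coding gene bodies 263.7 and 256.6. In Panx2 replicate 2 the shorter intervals had 208.8 and gene bodies 239.8, and in Panx2 replicate 1 they had 59.7 and 61.0. In Polr1c replicate 2 the shorter intervals had 14.9 and gene bodies 20.4, while in Polr1c replicate 1 the shorter intervals were the densest compartment, with 0.477 against 0.269 in gene bodies. The mean log2 ratio of deserts to shorter intervals was −0.60 ± 0.50 (SD, n = 6), again with 5 of 6 lists lower and an exact sign-flip p of 0.0625 (adjusted p = 0.104). Leaving out Panx2 replicate 1 gave −0.74.

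**Figure D1:**
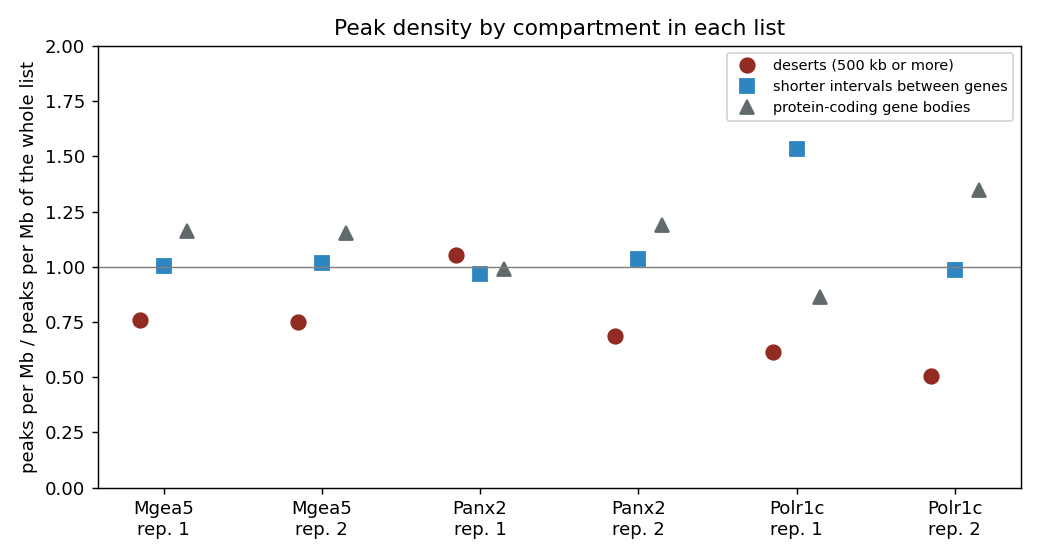
Peaks per Mb in deserts (circles), in shorter intervals between protein-coding genes (squares) and in protein-coding gene bodies (triangles), each divided by the peaks per Mb of the whole list, for the 6 lists. The circle lies below 1 in 5 lists and above it only in Panx2 replicate 1.

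When only peaks with a −log10 p of at least 2 were kept, all 6 lists were lower in deserts than in the rest, Panx2 replicate 1 included. The mean log2 ratio was then −0.66 with an exact sign-flip p of 0.03125, the smallest possible and not adjusted over settings. Panx2 replicate 1 kept only 618 of its 142781 peaks at that limit, 171 of them in deserts (27.7%), just under the 28.0% of sequence that deserts make up. At a q of at most 0.01 the deserts held 8 of 92 peaks of Mgea5 replicate 1, 6 of 94 of replicate 2, 0 of 2 of Panx2 replicate 1 and 55 of 331 of Panx2 replicate 2. They held 5 of 183 such peaks of Polr1c replicate 1 and 102 of 1209 of replicate 2. These shares, from 0% (of only 2 peaks) to 16.6% (Panx2 replicate 2), were all below 28.0%. Of all peaks of a list, deserts held 21.3% and 21.1% in Mgea5, 29.4% and 19.2% in Panx2, and 17.2% and 14.1% in Polr1c.

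Peaks in deserts were also narrower in 5 of the 6 lists, by small amounts. The median width was 470 bp in deserts against 543 bp elsewhere in Mgea5 replicate 1 and 395 against 444 bp in Mgea5 replicate 2. It was 439 against 537 bp in Panx2 replicate 2 and 716 against 715 bp in Panx2 replicate 1. In Polr1c it was 279.5 against 319 bp and 183 against 189 bp. The mean log2 ratio was −0.15 ± 0.11 (SD, n = 6; exact sign-flip p = 0.0625, adjusted p = 0.104), and −0.18 without Panx2 replicate 1. Peaks of 3 kb or more made up 0.219% of the desert peaks of Mgea5 replicate 1 against 0.691% elsewhere, and 0.157% against 0.962% in Panx2 replicate 2.

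The median fold enrichment hardly differed between deserts and the rest. It was 1.71 and 1.71 in Mgea5 replicate 1, 1.72 and 1.70 in replicate 2, 1.81 and 1.80 in Panx2 replicate 1 and 1.85 and 1.84 in Panx2 replicate 2. In Polr1c it was 2.76 against 3.05 in replicate 1 and 2.75 in both compartments in replicate 2. The mean log2 ratio was −0.02 ± 0.06 (SD, n = 6; exact sign-flip p = 0.9375), it was −0.03 without Panx2 replicate 1, and in Polr1c replicate 1 alone it was −0.14. With fewer and narrower peaks, the share of sequence under a peak was 9.94% in deserts against 17.1% elsewhere in Mgea5 replicate 1 and 7.50% against 15.7% in Panx2 replicate 2, but 5.52% against 5.15% in Panx2 replicate 1.

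Deserts were the far end of a slope rather than a step. In Mgea5 replicate 1 the density fell from 261.6 peaks per Mb in intervals under 10 kb to 228.9 at 100 to 250 kb, 199.8 at 500 to 1000 kb, 173.5 at 1000 to 2000 kb and 139.7 at 2000 kb or more. Panx2 replicate 2 went from 250.9 to 102.9 and Polr1c replicate 2 from 22.1 to 5.84 between the same ends. Panx2 replicate 1 ran from 53.9 to 64.7, with its lowest density in the shortest intervals. The deserts just inside the limit, Spaca1 to Akirin2 (500.5 kb) and Prok2 to Rybp (502.2 kb), had 219.8 and 290.7 peaks per Mb in Mgea5 replicate 1. The intervals just outside it, Luzp2 to Siglech (499.3 kb) and Srrm4 to Suds3 (499.1 kb), had 84.1 and 62.1, so single intervals near the limit scattered widely.

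**Figure D2:**
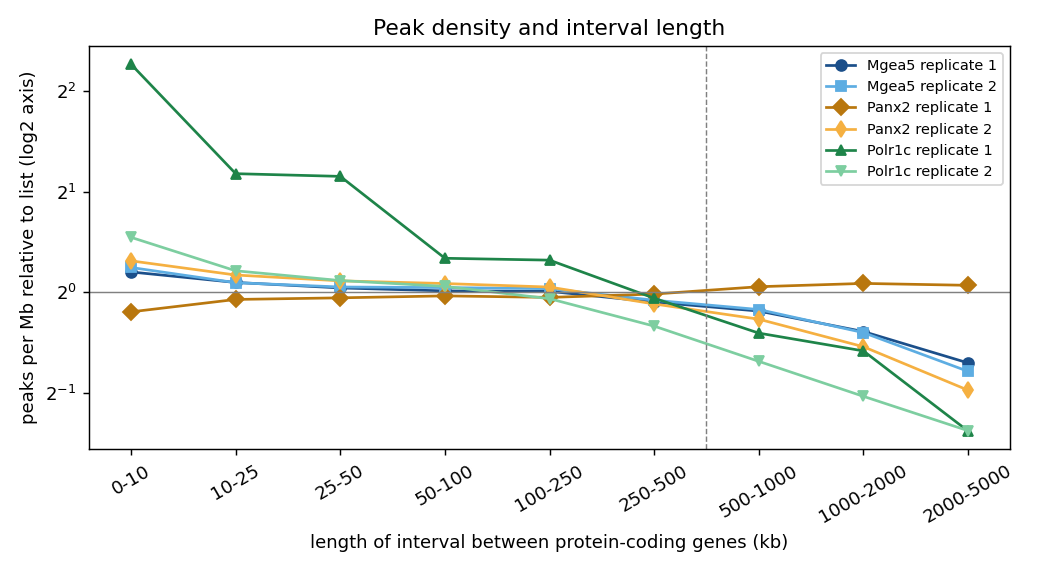
Peaks per Mb relative to the density of the list (log2 axis) against the length of the interval between protein-coding genes in kb, for the 6 lists, with the desert limit of 500 kb as a dashed line. All lists but Panx2 replicate 1 end lower than they start, and Panx2 replicate 1 runs from 0.874 to 1.05.

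Inside deserts the density also fell with distance from the nearest protein-coding gene. Within 10 kb of a gene, desert sequence had 215.2 peaks per Mb in Mgea5 replicate 1 and 219.2 in replicate 2, and beyond 1000 kb it had 124.7 and 114.4. In Panx2 replicate 2 the values were 184.5 and 88.1, and in Polr1c replicate 2 they were 12.0 and 5.10. Panx2 replicate 1 had 60.3 and 64.1, with no fall. The distance bins beyond 500 kb belong to long deserts alone, so length and distance cannot be told apart there.

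**Figure D3:**
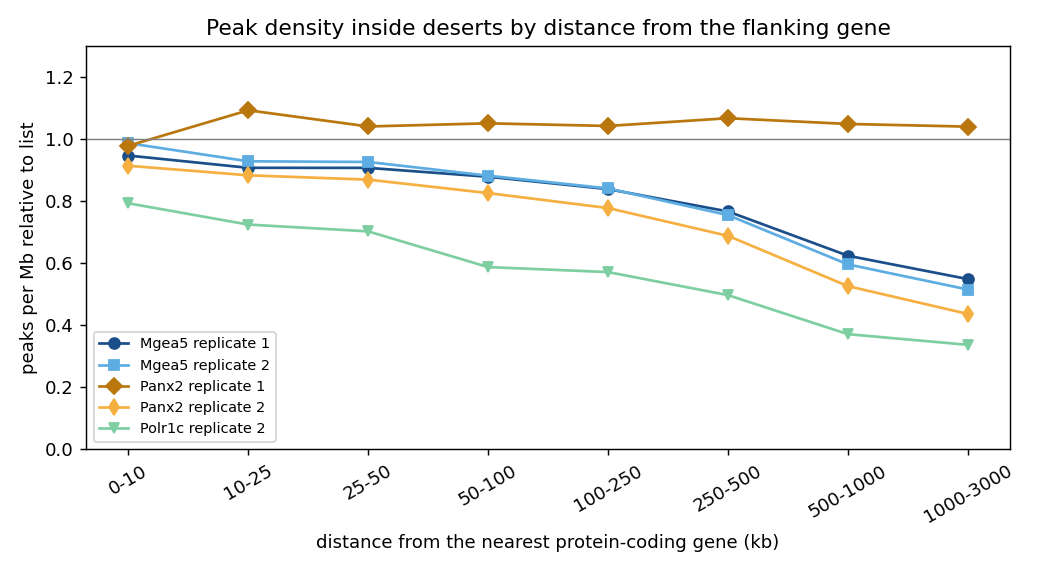
Peaks per Mb relative to the density of the list against distance from the nearest protein-coding gene in kb, inside deserts, for 5 lists (Polr1c replicate 1 has 124 desert peaks and is left out). The Mgea5 lists, Panx2 replicate 2 and Polr1c replicate 2 decline to between 0.337 and 0.549 in the last bin, and Panx2 replicate 1 stays between 0.978 and 1.09.

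The lower density of deserts held chromosome by chromosome. It was lower in deserts on 19 of 19 chromosomes in both Mgea5 lists, in Panx2 replicate 2 and in Polr1c replicate 2, and on 16 of 19 in Polr1c replicate 1. Panx2 replicate 1 was lower in deserts on 3 of 19. The number of deserts ranged from 7 on the part of chromosome 14 used to 52 on chromosome 3. Desert density was highest on chromosome 3 and lowest on chromosome 19 in 3 lists, with 237.7 and 82.4 peaks per Mb in Mgea5 replicate 1, 248.9 and 98.7 in Mgea5 replicate 2, and 187.3 and 81.3 in Panx2 replicate 2. Chromosome 3 also had the highest density outside deserts in these lists (296.4, 312.0 and 263.5).

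Single deserts differed from one another by more than deserts differed from the rest. Across the 562 deserts the density ran from 27.5 to 349.4 peaks per Mb in Mgea5 replicate 1 (median 186.4), from 30.7 to 386.6 in Mgea5 replicate 2 (median 180.7), from 14.7 to 121.3 in Panx2 replicate 1 (median 63.1) and from 38.4 to 327.5 in Panx2 replicate 2 (median 147.8). In Polr1c replicate 2 the median was 7.30 and 11 deserts had no peak, and in Polr1c replicate 1 457 deserts had none. In both Mgea5 lists 363 of the 562 deserts (64.6%) lay below the density of the list, where 42.2% of all 2397 intervals of at least 100 kb did. In both Panx2 lists 208 (37.0%) did, against 27.1% of those intervals. In the 3 broad lists other than Panx2 replicate 1 the deserts below were 357 (63.5%), against 40.0% of those intervals.

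The deserts rich in Mgea5 peaks were those rich in peaks of Panx2 replicate 2. Spearman's rho across the 562 deserts was 0.92 between the Mgea5 lists, and 0.92 and 0.93 between these and Panx2 replicate 2. The replicates of Panx2 gave a rho of 0.23, lower than any of these values between proteins, and Panx2 replicate 1 gave 0.35 and 0.40 with Mgea5. Polr1c replicate 2 gave 0.75, 0.73 and 0.74 with the Mgea5 lists and Panx2 replicate 2, and 0.08 with its own replicate 1. These are descriptions across deserts that share libraries, base composition and mappable sequence. The lists that ranked deserts alike were those of a single calling run, and protein, run and depth cannot be told apart from that grouping.

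**Figure D4:**
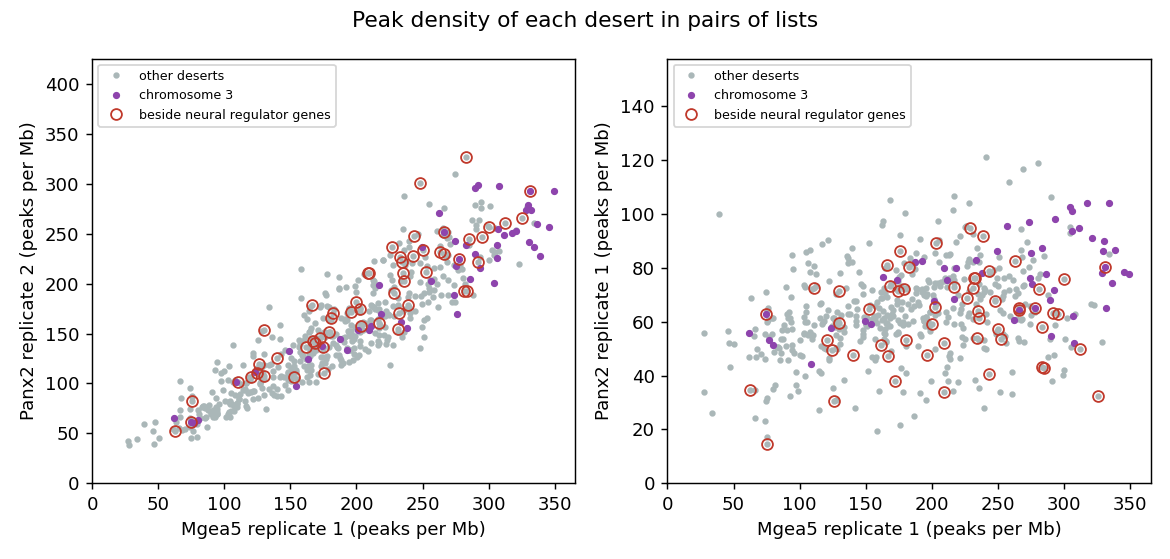
Peaks per Mb of each of the 562 deserts in Panx2 replicate 2 (left) and Panx2 replicate 1 (right) against Mgea5 replicate 1, with deserts of chromosome 3 in purple and deserts beside neural regulator genes circled. The left panel follows a diagonal (rho = 0.92) and the right panel is a broad cloud (rho = 0.35).

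The 5 longest deserts were all sparse outside Panx2 replicate 1. Celf4 to Pik3c3 on chromosome 18, between the genes of a neuronal RNA-binding protein and of a lipid kinase of autophagy, spans 4511 kb and had 84.7 and 99.5 peaks per Mb in Mgea5 and 50.1 and 76.9 in Panx2. Cntnap5b to Cdh20 on chromosome 1, both genes of adhesion proteins, had 107.5 and 83.7 in Mgea5 and 86.7 and 72.0 in Panx2. Tenm3 to Aga on chromosome 8, beside the gene of a teneurin that guides synapse partners, had 76.0 and 61.9 in Mgea5 and 60.7 and 52.6 in Panx2. Slc39a10 to Tmeff2 had 90.1 and 84.0 in Mgea5 and 72.7 and 70.2 in Panx2. Lrrc4c to Iftap, beside the gene of a netrin-G ligand, was the densest of the 5 in Mgea5 with 148.6 and 125.5 in Mgea5 and 61.6 and 105.4 in Panx2. In Mgea5 all 5 lay below the desert medians of 186.4 and 180.7, whereas in Panx2 replicate 1 Cntnap5b to Cdh20 and Slc39a10 to Tmeff2 lay above the median of 63.1.

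The 5 densest deserts by the mean over the 4 broad lists all lay on chromosome 3, as did 18 of the 20 densest. Cxxc4 to Tacr3, between a Wnt pathway inhibitor gene and a tachykinin receptor gene, had 317.5 and 337.0 peaks per Mb in Mgea5 and 104.1 and 250.5 in Panx2. 4930519L02Rik to Lmo4, beside a cortical transcriptional cofactor gene, had 331.1 and 356.3 in Mgea5 and 80.2 and 292.7 in Panx2. Ttll7 to Adgrl2, Pfn2 to Tsc22d2, and Gask1b to Gria2, the last beside an AMPA receptor subunit gene, had between 321.0 and 349.6 peaks per Mb in the Mgea5 lists. All of these exceeded the list's own density in each of the 4 broad lists.

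Set against the rest of their own chromosome instead, other deserts came first. Insc to Sox6 on chromosome 7, beside the gene of a SoxD transcription factor, was 0.44 above its chromosome on the mean log2 scale, with 248.2 and 306.2 peaks per Mb in Mgea5 and 67.7 and 301.4 in Panx2. Mki67 to Mgmt, between the gene of the proliferation marker Ki-67 and a DNA repair gene, was 0.42 above, with 289.5 and 338.7 in Mgea5 and 53.5 and 278.4 in Panx2. Tmem167 to Atp6ap1l followed with 0.35, and the adjoining 1700010I14Rik to Pabpc6 and Pabpc6 to Qk on chromosome 17 with 0.34 and 0.35. No chromosome 3 desert was among these 5.

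The sparsest deserts were the same on either scale for the first 3. Gm38538 to Gm40862 on chromosome 12 had 27.7 and 30.7 peaks per Mb in Mgea5, 33.8 and 38.4 in Panx2 and no Polr1c peak. Its near neighbour Gm46305 to Gm10476 had 33.6 and 48.9 in Mgea5 and 26.0 and 44.3 in Panx2. Kif20b to Htr7 on chromosome 19, beside a serotonin receptor gene, had 27.5 and 38.7 in Mgea5 and 56.0 and 42.7 in Panx2. In the first and the last of these 3, Panx2 replicate 1 held more peaks per Mb than either Mgea5 list. How much of these intervals reads can be mapped to was not tested.

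Deserts beside the listed neural regulator genes, 56 deserts flanked by 50 genes of transcription factors and other regulators, were denser than the other deserts in 4 of 6 lists. They held 203.4 against 169.7 peaks per Mb in Mgea5 replicate 1, 197.0 against 163.9 in replicate 2, 173.4 against 134.9 in Panx2 replicate 2 and 10.4 against 7.37 in Polr1c replicate 2. Panx2 replicate 1 had 63.4 against 65.0, and Polr1c replicate 1 had 0.134 against 0.197. The mean log2 ratio was 0.13 ± 0.38 (SD, n = 6; exact sign-flip p = 0.4375, adjusted p = 0.547), and 0.16 without Panx2 replicate 1. Among deserts under 1000 kb the mean turned to −0.13 (p = 0.96875 by the same exact test), where Polr1c replicate 1 had a ratio of 0.341 and the other lists 1.10, 1.09, 0.923, 1.17 and 1.34. In both Mgea5 lists 26 of the 56 (46.4%) were below the density of the list, where 64.6% of all deserts were, and 19 above it. In both Panx2 lists 14 of the 56 (25%) were below, where 37.0% of all deserts were, and 13 above.

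The neural deserts themselves spanned most of the range. On either side of Sox2, the transcription factor of neural stem cells, Dnajc19 to Sox2 had 277.9 and 260.3 peaks per Mb in Mgea5 and 65.1 and 225.1 in Panx2, and Sox2 to Atp11b had 266.0 and 273.2 in Mgea5 and 64.5 and 251.5 in Panx2. Both lie on the dense chromosome 3. Against the rest of that chromosome they were lower, at −0.20 and −0.16 on the mean log2 scale of the broad lists. Gm11677 to Sox9, beside the gene of a gliogenic factor and long known for distant enhancers, had 300.2 and 308.7 in Mgea5 and 75.8 and 256.7 in Panx2. Rragc to Pou3f1 had the highest Polr1c replicate 2 density of all deserts, 36.1 peaks per Mb, beside 283.1 and 301.1 in Mgea5. At the sparse end, Tshz3 to Zfp536 had 75.3 and 51.4 in Mgea5 and 14.7 and 82.6 in Panx2, and Bcl11a to Fancl, beside a cortical zinc finger gene, had 62.8 and 49.2 in Mgea5 and 34.8 and 52.4 in Panx2. These examples were picked, and most of the 56 lay between the sparsest and the densest of them in Mgea5 replicate 1. The Sox2 deserts were not at the dense end of that list, where Prox1 to Rps6kc1 had 312.3 and Irx3 to Irx5 325.5.

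Deserts beside adhesion and synaptic genes, 99 in all, were sparser than the other deserts in 5 of 6 lists. They held 145.4 against 181.9 peaks per Mb in Mgea5 replicate 1, 135.3 against 177.4 in replicate 2 and 108.3 against 148.4 in Panx2 replicate 2, but 65.8 against 64.5 in Panx2 replicate 1. Polr1c had 0.118 against 0.215 and 6.01 against 8.19. They were also longer, with a median of 1255 kb against 822.9 kb, and among deserts under 1000 kb the ratios to the others moved to 0.953, 0.922, 1.07, 0.854, 0.872 and 0.817. In both Mgea5 lists 81 of the 99 (81.8%) lay below the density of the list, where 64.6% of all deserts did, and in both Panx2 lists 37 (37.4%), where 37.0% did. Cdh12 to Cdh18 on chromosome 15, between genes of type II cadherins, was among the 5 sparsest relative to its chromosome, with 50.5 and 47.3 in Mgea5.

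Peak density per interval was compared between Mgea5 and Panx2 with limma, on log2 of observed over expected peaks with 0.5 added to each, over all 2397 intervals of at least 100 kb. No desert passed a Benjamini-Hochberg adjusted p of 0.05, in a table where 0.00% of intervals were called, and at an unadjusted p of 0.05 the count was 0 deserts where 1.00% of intervals (24) were called. The median log2 difference (Mgea5 minus Panx2) was −0.11 in deserts and −0.002 in all intervals. The replicates of Panx2 decided this result. Without Panx2 replicate 2, limma called 943 intervals (39.3%), of which 475 were lower and 468 higher in Mgea5. Among them were 190 deserts (33.8% of deserts), 164 lower and 26 higher, and the lone Panx2 library was then assumed to vary like the Mgea5 replicates. Without Panx2 replicate 1, limma called none, and the median difference in deserts was 0.13.

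Replicate peaks coincided less often in deserts than elsewhere, and less sequence was covered there. Of the Mgea5 replicate 2 peaks in deserts, 29.3% overlapped a replicate 1 peak by at least 1 bp, against 39.3% elsewhere. For Panx2, 19.3% of the desert peaks of replicate 1 overlapped replicate 2, against 32.1% elsewhere. For Polr1c, 11 of 124 desert peaks of replicate 1 did, which is 8.87% (95% Wilson interval 5.03% to 15.2%, counting error only), against 44.1% elsewhere. Shares of this kind rise with the sequence covered by the longer list, so the share of midpoints inside the longer list was divided by the share of sequence that list covers.

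Measured that way, the ratio in deserts was above that elsewhere for the Mgea5 replicates, near 1 for the Panx2 replicates and below that elsewhere for the Polr1c replicates. The Mgea5 ratio was 1.75 in deserts and 1.36 elsewhere, the Panx2 ratio 1.03 and 0.931, and the Polr1c ratio 50.3 and 98.5, from 124 desert peaks of replicate 1. With the covered share taken desert by desert, which was done for deserts alone, the ratios were 1.43 for Mgea5, 0.996 for Panx2 and 40.4 for Polr1c. Between proteins, Polr1c replicate 2 midpoints fell in Panx2 replicate 2 peaks 4.23 times and in Mgea5 replicate 1 peaks 3.23 times as often as the covered share of each desert gives, while with Panx2 replicate 1 the ratio was 1.07. Panx2 replicate 2 with Mgea5 replicate 1 gave 1.64, above the 1.43 of the Mgea5 replicates. These ratios were not tested, and the local background that MACS uses and the repeats of each desert were not analysed here.

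The strongest desert peaks were shared across proteins as well. All 8 desert peaks of Mgea5 replicate 1 at a q of 0.01 or less overlapped a peak of Mgea5 replicate 2, of Panx2 replicate 2 and of Polr1c replicate 2, and none overlapped Panx2 replicate 1 or Polr1c replicate 1. At least 4 of these 8 strong peaks lay together at chr2:98662198-98667346. Of the 102 such peaks of Polr1c replicate 2, 82 (80.4%) overlapped Panx2 replicate 2 and 73 (71.6%) Mgea5 replicate 1, whereas 6 (5.88%) overlapped the replicate Polr1c list and 12 (11.8%) Panx2 replicate 1. Of the 55 of Panx2 replicate 2, 42 (76.4%) overlapped Mgea5 replicate 1 and 5 (9.09%) Panx2 replicate 1. The 5 such peaks of Polr1c replicate 1 overlapped the lists of the other calling run more often than Panx2 replicate 1 of its own run, 4 of them Mgea5 replicate 1, 4 Mgea5 replicate 2, 4 Polr1c replicate 2, 3 Panx2 replicate 2 and 1 Panx2 replicate 1. Among all desert peaks of Polr1c replicate 2, whatever their q, 46.5% overlapped Panx2 replicate 2, 48.2% Mgea5 replicate 1 and 7.84% Panx2 replicate 1. Among all desert peaks of Panx2 replicate 2, 33.5% overlapped Mgea5 replicate 1. Strong peaks outside deserts were not counted in this way, and the cause of these overlaps was not tested.

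For Mgea5, all 4 desert regions with a q of at most 0.01 in both replicates lay at chr2:98662198-98667346 in the desert between Lrrc4c and Iftap, more than 1 Mb from either gene, where the gene table shows no gene. The repeats of this stretch and how well reads map to it were not analysed here. Whether its signal is binding of these proteins was therefore not tested. The strongest by fold, chr2:98664895-98665242, had folds of 2.94 and 2.05 with −log10 q of 17.1 and 5.91 in Mgea5, and 3.68 in Panx2 replicate 2 and 2.85 in Polr1c replicate 2. Elsewhere in the gene span 51 Mgea5 regions met the same limit. By mean fold the first desert region of Mgea5 was chr4:67208511-67208678 between Tlr4, an innate immune receptor gene, and Brinp1, with 3.39 and 4.2, followed by one inside the lncRNA gene Gm39903 at chr2:107737243-107737567 (3.89 and 2.61) and one inside the lncRNA gene Gm34259 at chr17:4626207-4626429 (3.13 and 2.78). All of these also carried a Panx2 replicate 2 and a Polr1c replicate 2 peak, and none a peak of Panx2 replicate 1 or Polr1c replicate 1.

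For Panx2, no desert region reached a q of 0.01 in both replicates, and 2 did elsewhere. The region with the highest mean fold lay between Zeb2, the gene of a neural crest and interneuron transcription factor, and Acvr2a at chr2:48714813-48715073, 99166 bp from Acvr2a, with 1.79 in replicate 1 and 5.04 in replicate 2. Next came regions between Pabpc4l and Pcdh18 (1.87 and 4.41), Chl1 and Cntn6 (2.01 and 4.03), Pros1 and Epha3 (2.15 and 3.72) and Has2 and Slc22a22 (2.40 and 3.01). In replicate 1 the −log10 q was 0 at all 5, so replicate 2 set their rank.

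For Polr1c, 10 regions shared by both replicates lay in deserts and 278 elsewhere, a desert share of 3.47%, and 3 of the 10 sat at the edge. The strongest, chr15:93596424-93596670, has its midpoint 281 bp from Prickle1, a planar cell polarity gene, with folds of 3.92 in replicate 1 and 13.1 in replicate 2. A region 538 bp from Adgrl2, a latrophilin gene, came next, with 5.37 and 6.83. Of the 102 strong desert peaks of replicate 2, 9 lay within 1 kb of a flanking gene, where 0.564% of all its desert peaks did. Of the 5 of replicate 1, 3 did, where 4.84% of all its desert peaks did. None of the strong desert peaks of Mgea5 or Panx2 did. Among all desert peaks of those lists the share was only 0.136% to 0.258%, so this absence does not set their strong peaks apart.

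The Prickle1 promoter is shown because the Polr1c replicate 2 peak of that strongest edge region, chr15:93595876-93596670, extends over it. The window itself is in the gene, beside the desert, and does not reach the region shared with replicate 1. It is the minus strand of chr15:93595853-93596152 on GRCm38.p6, from 250 bases before to 50 after the RefSeq start. Capitals mark the 277 bases covered by the Polr1c replicate 2 peak, and the window is 74.0% G and C with 39 CpG.
Prickle1: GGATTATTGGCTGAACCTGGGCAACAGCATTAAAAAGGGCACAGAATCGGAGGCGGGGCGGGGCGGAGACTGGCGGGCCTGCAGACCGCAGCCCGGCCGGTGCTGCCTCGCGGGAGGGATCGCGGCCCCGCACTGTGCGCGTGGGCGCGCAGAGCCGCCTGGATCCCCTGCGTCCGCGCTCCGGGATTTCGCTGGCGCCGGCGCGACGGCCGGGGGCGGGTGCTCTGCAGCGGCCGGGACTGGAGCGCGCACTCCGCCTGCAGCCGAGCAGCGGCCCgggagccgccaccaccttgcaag

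Inside deserts, Polr1c sites included the snoRNA host gene of an imprinted domain and few tRNA genes, the classical templates of RNA polymerase III. Of the 10 tRNA genes in deserts, 1 had a peak in both Polr1c lists within 200 bp, against 104 of 363 elsewhere. The desert tRNA gene n-TDgtc16 on chromosome 10 had a peak in replicate 1 only, with a fold of 5.49, and 8 had no Polr1c peak. Snhg14, which hosts snoRNA clusters between Ube3a and Snurf, carried a pair of regions, chr7:59859577-59859819 with 4.29 and 2.55 and chr7:59771457-59771713 with 3.34 and 2.49, the second of them also in all 4 broad lists. That desert held 206 of the 467 snoRNA genes found in deserts, and its Polr1c replicate 2 density was 17.9 peaks per Mb against a desert median of 7.30. Further regions lay between Ncam1 and Plet1 (2.88 and 4.38), Prox1 and Rps6kc1 (3.90 and 2.27, with a peak in all 6 lists), Trib2 and Lpin1 in the lncRNA gene Gm36372 (2.56 and 2.45) and A830018L16Rik and Sulf1 (2.58 and 1.64).

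Deserts held 5235 non-coding genes and gene segments, 2237 of them lncRNA genes, and only 3 deserts had no gene of any kind. Inside lncRNA gene bodies, which cover 70.1 Mb of desert, peaks were denser than in the remaining desert in 5 of 6 lists. The values were 196.6 against 169.9 peaks per Mb in Mgea5 replicate 1, 193.7 against 163.7 in replicate 2 and 166.0 against 135.1 in Panx2 replicate 2. Panx2 replicate 1 had 62.1 against 65.2, and Polr1c had 0.285 against 0.180 and 8.95 against 7.49. The desert between Adam6a and Zfp386 on chromosome 12, which holds 121 immunoglobulin V segments, was sparse, with 117.9 and 76.8 peaks per Mb in Mgea5.

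Promoters of desert lncRNA genes carried peaks less often than other lncRNA promoters in 5 of 6 lists. RefSeq windows of 300 bases were found for 2018 promoters in deserts and 8948 elsewhere. A peak overlapped 26.3% of the desert promoters in Mgea5 replicate 1 against 34.9% elsewhere, 18.6% against 21.6% in replicate 2 and 22.6% against 38.9% in Panx2 replicate 2. Panx2 replicate 1 had 5.10% against 4.87%, and Polr1c had 0% against 0.145% and 1.09% against 2.94%. Both Mgea5 replicates had a peak at 143 desert promoters (7.09%), where 8.71% of all 10966 did. Both Panx2 replicates had one at 25 (1.24%), where 1.60% of all did, and both Polr1c replicates at 0, where 0.0821% of all did. Windows of a gene with several starts can overlap, so promoters are not independent.

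Base composition moved with these shares, and in opposite directions in the replicates of Panx2. Desert promoters had a median of 45% G and C against 49.3% elsewhere. From desert promoters under 40% G and C to those of 55% or more, the share with a peak went from 17.1% to 52.9% in Mgea5 replicate 1 and from 10.8% to 53.7% in Panx2 replicate 2. It went from 15.1% to 16.2% in Mgea5 replicate 2, from 6.48% to 2.21% in Panx2 replicate 1 and from 0.648% to 3.68% in Polr1c replicate 2. Desert promoters with a peak had a median of 47.3% G and C in Panx2 replicate 2 and of 42.7% in Panx2 replicate 1. The part of base composition in the lower density of deserts was not tested.

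**Figure D5:**
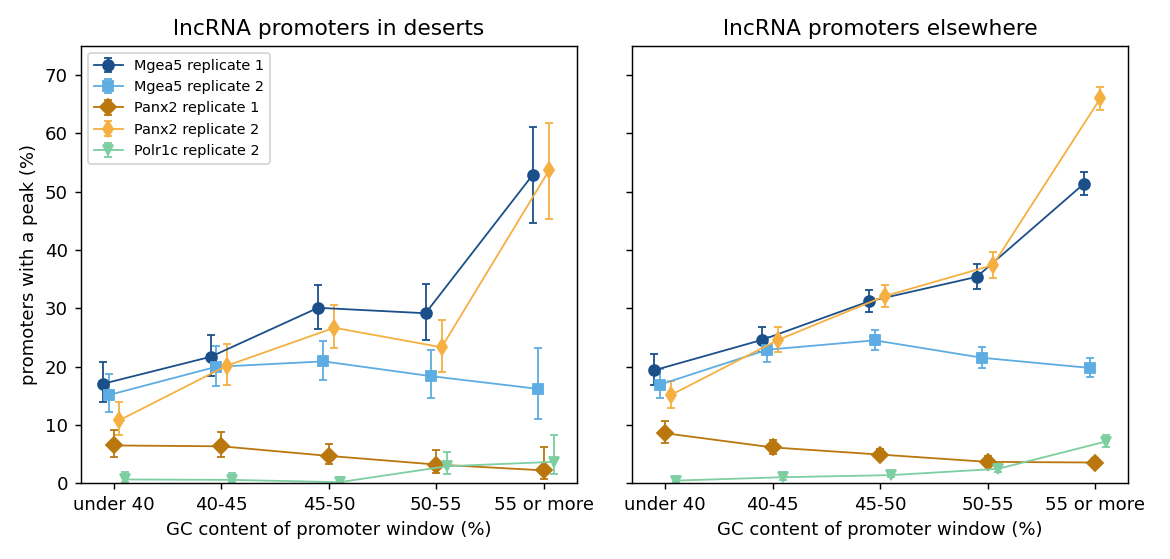
Share of lncRNA promoter windows with a peak, in percent, by G and C content of the window, for promoters in deserts (left) and elsewhere (right), in 5 lists, with 95% Wilson intervals as bars. In deserts Mgea5 replicate 1 and Panx2 replicate 2 rise to 52.9% and 53.7% in the last bin, while Panx2 replicate 1 falls to 2.21%.

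Promoters with peaks in 4 lists and with a peak in Panx2 replicate 1 alone are shown as examples. In Junos (plus strand, chr4:95075386-95075685, in the desert between Jun and Fggy) and Gm32073 (plus strand, chr16:84558138-84558437, between Ncam2 and Mrpl39), capitals mark the bases under the Polr1c replicate 2 peak. Both had peaks in the Mgea5 lists, Panx2 replicate 2 and Polr1c replicate 2, as did 3 desert promoters in all, with folds from 1.75 to 3.0, and neither had one in Panx2 replicate 1. Their G and C contents are 53.3% and 39.3%.
Junos: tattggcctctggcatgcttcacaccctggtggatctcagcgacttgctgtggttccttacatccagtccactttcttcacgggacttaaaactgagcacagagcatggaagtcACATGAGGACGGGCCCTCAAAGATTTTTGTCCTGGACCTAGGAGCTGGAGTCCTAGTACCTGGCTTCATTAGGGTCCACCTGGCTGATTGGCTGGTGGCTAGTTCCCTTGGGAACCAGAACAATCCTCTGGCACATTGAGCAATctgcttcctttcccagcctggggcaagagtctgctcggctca
Gm32073: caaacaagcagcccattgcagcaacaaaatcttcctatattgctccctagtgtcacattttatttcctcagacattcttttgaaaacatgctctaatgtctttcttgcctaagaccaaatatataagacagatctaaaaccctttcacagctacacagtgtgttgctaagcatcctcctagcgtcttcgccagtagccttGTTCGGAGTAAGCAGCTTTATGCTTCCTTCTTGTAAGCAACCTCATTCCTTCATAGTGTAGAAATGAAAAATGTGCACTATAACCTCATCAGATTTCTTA

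The other pair are the most AT-rich of the 52 desert promoters with a peak in Panx2 replicate 1 and in no other list. They were picked for that composition and do not stand for the 52. The median over all desert promoters with a peak in Panx2 replicate 1 was 42.7% G and C. In Gm35368 (plus strand, chr8:63550076-63550375, between Spock3 and Sgo2b) and Gm38767 (plus strand, chr6:14018275-14018574, between 2610001J05Rik and Ppp1r3a), capitals mark every G and C. These make up 26.7% of each window, neither window has a CpG, and the folds in Panx2 replicate 1 were 1.91 and 1.79 with a −log10 q of 0.
Gm35368: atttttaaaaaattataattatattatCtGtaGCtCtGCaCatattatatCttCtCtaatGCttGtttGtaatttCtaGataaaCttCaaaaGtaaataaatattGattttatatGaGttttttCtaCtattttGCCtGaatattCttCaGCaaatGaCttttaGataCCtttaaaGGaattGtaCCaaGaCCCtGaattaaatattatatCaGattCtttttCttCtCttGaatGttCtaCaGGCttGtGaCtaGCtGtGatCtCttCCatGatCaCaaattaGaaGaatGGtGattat
Gm38767: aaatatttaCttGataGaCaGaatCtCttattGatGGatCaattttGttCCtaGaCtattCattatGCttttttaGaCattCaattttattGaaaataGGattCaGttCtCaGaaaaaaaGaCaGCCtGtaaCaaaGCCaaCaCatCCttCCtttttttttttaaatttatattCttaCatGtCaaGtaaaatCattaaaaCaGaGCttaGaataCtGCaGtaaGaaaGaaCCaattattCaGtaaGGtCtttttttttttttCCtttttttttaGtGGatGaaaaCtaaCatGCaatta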

How the data were processed

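ChIP-seq peak lists for Mgea5, Panx2 and Polr1c (2 replicates each) in mouse hippocampal neural progenitor cells were analysed. Per the submitters' processing notes, the tools were Bowtie2 2.3.5, MACS3 3.0.0a5 and Trim Galore, on mm10. For the control, cut-offs and filters, the settings were not given in the sources used here. Columns that the authors deposited are the fold enrichment of a peak (a linear ratio), its −log10 p, its −log10 q and a display score, of which the score was not used. They served only to rank, describe or filter the peaks of a single list. The authors' positions were used in 1-based form. Read depth is unknown, and intervals cover counting error only.

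Genes came from the RefSeq GRCm38.p6 table, without 328 genes that carry scaffold coordinates. Deserts, lists and members were chosen with earlier results of these data known. Over libraries, log2 ratios were tested by exact two-sided sign-flip permutation with Benjamini-Hochberg adjustment over 5 tests. Intervals of at least 100 kb were fitted with limma 3.58.1 (trend, pseudocount 0.5) in R 4.3.3, checked on simulated data, and other steps used Python 3.11.15 with scipy 1.17.1. Same-numbered Mgea5 and Panx2 libraries did not deviate together (r = 0.042 over 2397 intervals), and the labels give no pairing. Named deserts are the 5 longest, densest and sparsest, those nearest the limit, that of Mir9-2 and those beside neural regulator genes, and named regions are the 5 of highest mean fold per protein and those with a q of at most 0.01 in both replicates. Deserts ranked within their chromosome, those richest in small RNA genes or V segments, the other Polr1c regions, tRNA genes and the promoters shown were chosen after their values were seen. Some deserts and regions that meet these rules are not reported here.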

Additional observations from a re-analysis of the deposited data

How the results depend on the processing

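With only peaks of a −log10 p of at least 2, all 6 lists were lower in deserts. The exact sign-flip p, not adjusted over settings, fell to 0.03125 for density against the rest (mean log2 ratio −0.66), density against shorter intervals (−0.59) and width (−0.29). Only Panx2 replicate 1 changed side. It kept 618 peaks, of which deserts held 27.7%, against 28.0% of the sequence. Both Polr1c lists kept all their peaks. At a −log10 p of at least 3, with Panx2 replicate 1 left out for its 5 desert peaks, the mean log2 ratios became −1.29, −1.16 and −0.50 in the same order. Each then had a sign-flip p of 0.0625. Width also passed, at −0.17, with deserts taken between RefSeq genes of any kind (164 deserts, 113.6 Mb). Density at neural regulator genes turned to −0.13 in deserts under 1000 kb, an alternative added after seeing the data. There Polr1c replicate 1, the shortest list, had a ratio of 0.341, and the other lists lay between 0.923 and 1.34. Leaving out 1 library gave −0.78 to −0.52 for density, −0.74 to −0.46 against shorter intervals, −0.18 to −0.12 for width, −0.027 to 0.0037 for fold (above 0 without Polr1c replicate 1), and 0.060 to 0.27 for neural deserts. By calling run, density was −0.40 for Panx2 replicate 1 with Polr1c replicate 1 and −0.76 for the other 4 lists.

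Shared positions fell both in deserts and elsewhere under stricter rules. With a reciprocal overlap of 50% they were 6.86% in deserts against 8.32% elsewhere for Mgea5, and 3.61% against 6.07% for Panx2. At a −log10 p of at least 2 they were 2.02% against 4.31% for Mgea5 and 5.26% against 9.40% for Panx2. At a −log10 q of at least 2 they were 50% against 60.7% for Mgea5 and 60% against 86.0% for Polr1c, from 8 and 5 desert peaks. Panx2 had no desert peak to count there. The limma count between Mgea5 and Panx2 ranged from 0 to 943 when 1 library was left out, and was 0 with a replicate block. The causes were not tested. Of the alternative values, 64 kept their direction and their side of the threshold or moved little. Another 7 moved further, 4 newly passed the threshold and 2 changed direction. Settings with 5 or fewer libraries could not pass 0.05 in the sign-flip test. Their side of the threshold was therefore fixed beforehand and says nothing about robustness. Unknown read depth, lenient calling and 2 replicates per protein limit all of these values.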
